A study of Mus musculus with 2 samples.

Results

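The genes that build, fold, crosslink and cut the extracellular matrix were followed in RNA from mouse pancreatic islets. They were chosen by symbol: every gene of a collagen chain, a laminin chain, fibronectin (Fn1), Sparc, a nidogen, perlecan (Hspg2), a fibrillin, a tissue inhibitor of metalloproteinases (Timp), a matrix metalloproteinase (Mmp), an Adamts protease, a lysyl oxidase or the collagen chaperone Serpinh1. This gave 106 of the 17245 genes in the deposited table. The study compared islets labelled KO, from mice in which the cytosolic DNA sensor cGAS was knocked out in β-cells, with wild-type (WT) islets. The islets were freed by collagenase digestion of the pancreas, picked by hand and cultured, and whole islets contain endothelial, stromal and immune cells besides endocrine cells. There was 1 library per genotype, and the sources used here do not give the strain, age or number of mice, the exon removed or how the knockout was restricted to β-cells. No difference below therefore has a replicate check, and none has a p-value.

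RNA of the targeted gene, Cgas, was 0.521 FPKM (reads or fragments per kilobase of transcript, scaled to depth) in the library labelled KO, against 0.205 FPKM in the WT library. The ratio was 2.55 (95% counting interval 1.35 to 4.98), so Cgas RNA was not lower in the library labelled KO. Both values lay under 1 FPKM, on 31 reads in KO-labelled and 16 in WT islets. They cannot tell whether the label holds, since the exon removed is not given and whole islets contain other cells. That library is named by its label throughout, and each direction is between the libraries as labelled. The β-cell genes Ins1 and Ins2 were the most abundant of the β-cell markers in both libraries, as the tissue label says. Whole read numbers behind the FPKM values gave a depth of 14537660 reads for the KO column and 19097001 for the WT column. Reads given for single genes are the smallest whole numbers that fit both values, and the true reads can be a multiple of them. Intervals cover counting error only, since 1 library per genotype holds no spread between mice or preparations. PCR copies of the same molecule count as separate reads unless molecular identifiers are used, so an interval can also be too narrow. Islet RNA is a mixture, in which fewer cells of a type and less RNA per cell cannot be told apart.

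As background, islets are wrapped and crossed by basement membrane, a sheet of type IV collagen and laminins joined by nidogens and perlecan. Mouse β-cells are known to make little of it themselves and to rest on the membrane laid down by the capillary endothelium. Fibrillar collagens around islets come mainly from stellate cells and fibroblasts. Metalloproteinases and Adamts enzymes cut these proteins, and the Timp proteins inhibit the metalloproteinases.

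Nearly the whole group was shifted one way between the libraries. Of the 106 genes, 61 reached 1 FPKM in at least 1 library, and these are called expressed here. Among them, 8 of 61 (13.1%) were at least 2-fold higher in the library labelled KO on the log2(FPKM + 1) scale, against 6.98% of all 12428 expressed genes. They were Col27a1, Col11a2, Mmp23, Adamts10, Serpinh1, Col20a1, Col15a1 and Hspg2. The 6.98% is also the share to set beside the counts of genes at least 2-fold higher within roles and lists below. With a trend on GC content and transcript length removed, Col27a1 and Col11a2 stayed past the limit and the other 6 did not. None of the 61 was at least 2-fold lower, against 3.88% of all expressed genes. The median log2 ratio over the 61 genes was 0.58 (quartiles 0.29 and 0.80), against 0.077 (quartiles -0.35 and 0.51) over all expressed genes. The shift was broad and mostly under 2-fold: 57 of 61 genes (93.4%) had the higher FPKM in the library labelled KO, against 54.4% of all expressed genes. Counted over all 106 genes whatever their level, 92 (86.8%) were higher there, against 58.2% of all 17245 genes.

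The floor of 1 FPKM can favour the library where a gene is high. Of the 61 genes, 50 reached it in both libraries and 11 in the library labelled KO alone, with 0 in the WT library alone. Among the 50 genes above the floor in both, 7 were at least 2-fold higher, against 6.85% of all genes held to that floor, and their median log2 ratio was 0.60. The counting interval of the FPKM ratio lay above 1 for 49 of the 61 genes (80.3%), against 42.1% of all expressed genes with an interval. It lay below 1 for 1 gene, Mmp24, against 34.3% of all such genes, and held 1 for 11. These counts use the smallest reads that fit, and an interval is too wide where the true reads are a multiple. Summed over all 106 genes the level was 738 FPKM in the library labelled KO, against 444 FPKM in the WT library: the ratio was 1.66. The same sum over all genes of the table had a ratio of 1.11.

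**Figure D1:**
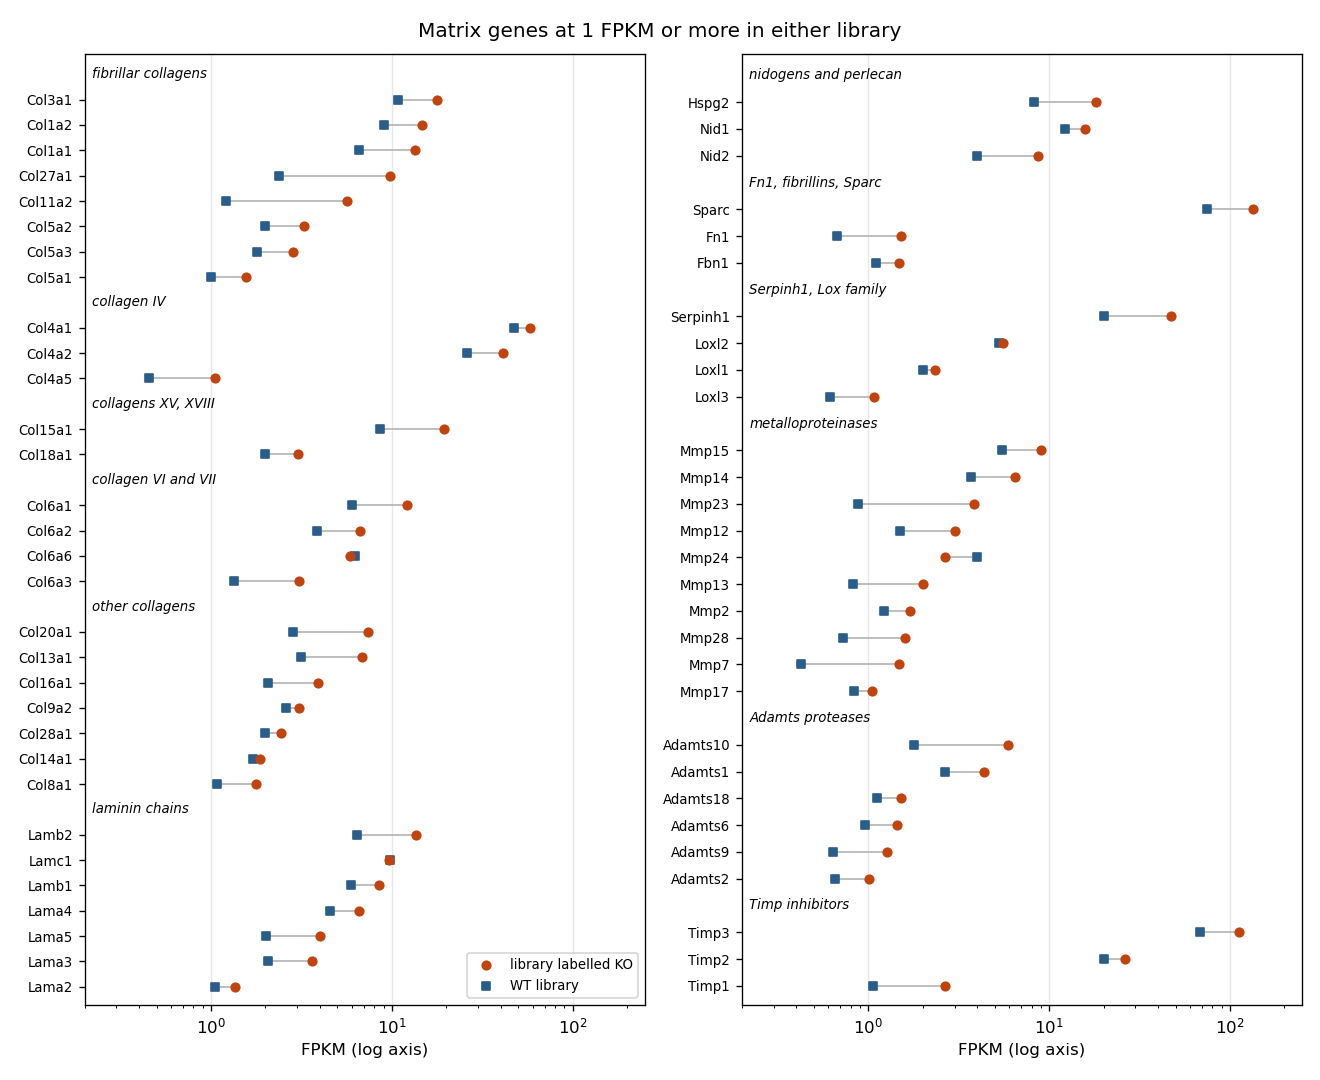
FPKM (log axis) of the expressed matrix genes, 1 of the 61 not shown, in the library labelled KO (circles) and the WT library (squares), grouped by role, 1 library each. The circle lies to the right in 57 genes, and the widest gaps belong to Col27a1, Col11a2 and Mmp23.

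The same pair of genes led in both libraries. Sparc, a collagen-binding glycoprotein made at basement membranes, was highest, and Timp3 came next. Together they made up 33.4% of the summed matrix FPKM in the library labelled KO, against 32.1% in the WT library. The 5 highest genes (Sparc, Timp3, Col4a1, Serpinh1 and Col4a2) held 53.2% and the 10 highest 66.5% in the library labelled KO, against 53.3% and 66.8% in the WT library. The sum thus differed 1.66-fold while the share held by its leading genes differed by under 2 percentage points. Every one of the 12 roles had the higher summed FPKM in the library labelled KO, with ratios of these sums from 1.35 for collagen IV to 2.13 for collagens XV and XVIII.

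**Figure D2:**
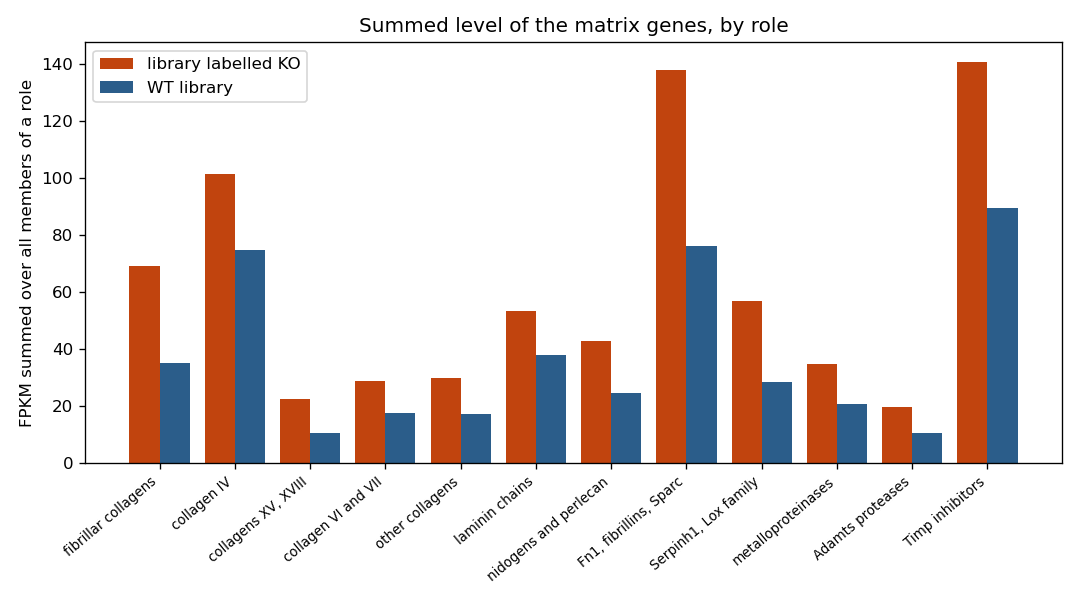
FPKM summed over all members of each of the 12 roles (bars from 0), library labelled KO on the left of each pair and WT library on the right, 1 library each. The tallest pairs are the Timp inhibitors (141 FPKM in KO-labelled islets, against 89.6 FPKM in WT islets), the group led by Sparc (138 FPKM in KO-labelled islets, against 76.1 FPKM in WT islets) and collagen IV (101 FPKM in KO-labelled islets, against 74.9 FPKM in WT islets).

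Start-site sequences are shown for 2 sets of matrix genes, each chosen because its windows hold a named motif. They are the 120 bases before the annotated start, 5′ to 3′ on the gene's own strand, from RefSeq on GRCm38.p6. The first set is from the metalloproteinase cluster on chromosome 9, whose members cut collagens, elastin or other matrix proteins; none of the 4 passed the 2-fold limit. Capitals mark the AP-1 motif TGANTCA, known as the binding sequence of Fos and Jun dimers.
Mmp13 (chr9:7272394-7272513, plus strand): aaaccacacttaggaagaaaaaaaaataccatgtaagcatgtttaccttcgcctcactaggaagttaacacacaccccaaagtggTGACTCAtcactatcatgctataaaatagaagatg
Mmp12 (chr9:7347254-7347373, plus strand): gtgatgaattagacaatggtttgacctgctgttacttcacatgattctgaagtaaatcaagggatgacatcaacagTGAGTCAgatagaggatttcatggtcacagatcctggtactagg
Mmp3 (chr9:7445702-7445821, plus strand): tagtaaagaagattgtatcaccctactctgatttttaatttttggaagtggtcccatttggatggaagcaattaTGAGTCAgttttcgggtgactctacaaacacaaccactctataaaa
Mmp7 (chr9:7691970-7692089, plus strand): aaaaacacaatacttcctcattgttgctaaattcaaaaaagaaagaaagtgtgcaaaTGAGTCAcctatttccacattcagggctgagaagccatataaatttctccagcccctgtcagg

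The motif lies 35 to 29 bases before the start of Mmp13, 44 to 38 before Mmp12, 46 to 40 before Mmp3 and 63 to 57 before Mmp7. For Mmp12 the window is that of the second of its 2 RefSeq starts. Read on both strands in the 250 bases before each start, TGANTCA was present in 4 of 15 metalloproteinase windows (26.7%), all 4 of them in this cluster. It was present in 6.75% of all 32851 windows and in 5 of the 77 windows of matrix genes (6.49%), the fifth being that of Col6a1. None of these matches shared bases with another motif searched. The 4 windows had a median GC content of 38.8%, against 52.4% over all windows. A match is a description of the sequence, and no binding was measured.

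The second set belongs to 3 of the 8 genes past the 2-fold limit: the fibrillar collagens Col27a1 and Col11a2 and the collagen chaperone Serpinh1. Capitals mark the GC box GGGCGG or its complement CCGCCC.
Col27a1 (chr4:63215292-63215411, plus strand): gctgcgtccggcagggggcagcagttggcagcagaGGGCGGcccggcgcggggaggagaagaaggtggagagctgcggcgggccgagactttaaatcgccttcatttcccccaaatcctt
Col11a2 (chr17:34039018-34039137, plus strand): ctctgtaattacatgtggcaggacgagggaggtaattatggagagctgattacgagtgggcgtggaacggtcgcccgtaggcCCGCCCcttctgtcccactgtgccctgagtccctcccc
Serpinh1 (chr7:99353240-99353359, minus strand): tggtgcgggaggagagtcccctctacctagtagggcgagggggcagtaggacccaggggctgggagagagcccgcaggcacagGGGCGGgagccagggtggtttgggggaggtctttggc

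Of the other 5 genes past the limit, Hspg2 also has the GC box, while the windows of Mmp23, Col20a1 and Col15a1 have none; no window of Adamts10 was used here. The GC box was present in 45 of the 77 matrix windows (58.4%), against 32.7% of all windows, and the matrix windows had a median GC content of 60.8%. The other motifs searched were no more frequent in matrix windows than in all: CCAAT in 27.3% against 33.8%, and TATAAA in 11.7% against 12.4%. The heat-shock motifs were in 2.6% against 6.69% for GAANNTTC and in 1.3% against 7.17% for TTCNNGAA.

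Among the fibrillar collagens, which form the ropes of interstitial matrix, Col27a1 and Col11a2 differed most. Col27a1 (chr4:63214004-63334991) was 9.73 FPKM in the library labelled KO, against 2.39 FPKM in the WT library: the ratio was 4.08 (3.61 to 4.62). Col11a2 (chr17:34039437-34066685), known from cartilage fibrils, was 5.64 FPKM in KO-labelled islets, against 1.2 FPKM in WT islets, a ratio of 4.69 (3.96 to 5.57). These were the widest log2 ratios of the group, at 1.66 and 1.59. The common chains of types I and III stayed under the 2-fold limit. Col1a1 was 13.4 FPKM in the library labelled KO, against 6.62 FPKM in the WT library (ratio 2.02, 1.77 to 2.30, log2 ratio 0.91). Col1a2 was 14.7 FPKM in KO-labelled islets, against 9.05 FPKM in WT islets (1.62, 1.48 to 1.77), and Col3a1, the type III chain, was 17.8 FPKM in KO-labelled islets, against 10.9 FPKM in WT islets (1.64, 1.52 to 1.78). The Col1a1 level per Col1a2 level was 0.910 in the library labelled KO, against 0.731 in the WT library. Col5a1, Col5a2 and Col5a3, chains of the type V collagen that starts fibrils, had ratios of 1.56 to 1.65. All 8 expressed fibrillar chains were higher in the library labelled KO and 2 passed the limit, with a median log2 ratio of 0.65. Col2a1, Col11a1 and Col24a1 were below the floor in both libraries.

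Type IV collagen, the network of basement membrane, was abundant and stayed under the 2-fold limit. Col4a1 (chr8:11198423-11312826) was 58.1 FPKM in the library labelled KO, against 47.3 FPKM in the WT library: the ratio was 1.23 (1.18 to 1.27). Its partner chain Col4a2 (chr8:11312805-11449287) was 41.1 FPKM in KO-labelled islets, against 26.1 FPKM in WT islets, a ratio of 1.57 (1.5 to 1.65). These genes are transcribed away from each other from neighbouring starts, and the counting intervals of their ratios did not overlap. The Col4a1 level per Col4a2 level was 1.41 in the library labelled KO, against 1.81 in the WT library. Col4a5, a chain of the minor networks of kidney and other tissues, was 1.05 FPKM in KO-labelled islets, against 0.456 FPKM in WT islets (2.30, 1.65 to 3.25). Type IV chains held 13.7% of the summed matrix FPKM in the library labelled KO, against 16.9% in the WT library.

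Collagens XV and XVIII, which carry sugar chains and bind basement membrane to the tissue around it, were also higher. Col15a1 (chr4:47208161-47313167) was 19.5 FPKM in the library labelled KO, against 8.59 FPKM in the WT library: the ratio was 2.27 (2.09 to 2.47). Col18a1, the source of endostatin, was 3.02 FPKM in KO-labelled islets, against 2.0 FPKM in WT islets (1.51, 1.28 to 1.79). Of this pair Col15a1 passed the 2-fold limit and Col18a1 did not.

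Type VI collagen forms beaded filaments beside cells, built from chains of Col6a1, Col6a2 and Col6a3. All of these were higher in the library labelled KO and none passed the limit. Col6a1 was 12.1 FPKM in the library labelled KO, against 6.02 FPKM in the WT library (2.02, 1.79 to 2.28), Col6a2 was 6.67 FPKM in KO-labelled islets, against 3.87 FPKM in WT islets (1.72, 1.52 to 1.95) and Col6a3 was 3.06 FPKM in KO-labelled islets, against 1.33 FPKM in WT islets (2.29, 1.97 to 2.67). Col6a6, which can stand in for the Col6a3 chain, had a ratio near 1: it was 5.87 FPKM in the library labelled KO, against 6.22 FPKM in the WT library (0.944, 0.851 to 1.05). Col7a1, the chain of anchoring fibrils in skin, was below the floor at 0.944 FPKM in KO-labelled islets, against 0.181 FPKM in WT islets, a ratio of 5.21 (3.51 to 7.94) that rests on 127 reads in KO-labelled and 32 in WT islets.

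Of the 17 remaining collagens, which lie on fibrils, form sheets or span membranes, 7 were expressed and all 7 were higher in the library labelled KO, although Col14a1 changed sign with equal library sums and Col9a2 with the GC and length trend removed. Col20a1 (chr2:180986535-181018363), a fibril-associated collagen, was 7.38 FPKM in the library labelled KO, against 2.85 FPKM in the WT library: the ratio was 2.59 (2.27 to 2.96). It was the only one of the 7 past the limit. Col13a1, a transmembrane collagen of cell contacts, was 6.81 FPKM in KO-labelled islets, against 3.14 FPKM in WT islets (2.17, 1.91 to 2.47). Col16a1 was 3.89 FPKM in KO-labelled islets, against 2.07 FPKM in WT islets (1.87, 1.59 to 2.21). For Col28a1, Col9a2 and Col14a1 the counting interval held 1. Col8a2, a sheet-forming collagen of the cornea, was below the floor and was the only such gene with an interval below 1, at 0.246 FPKM in KO-labelled islets, against 0.467 FPKM in WT islets.

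**Figure D3:**
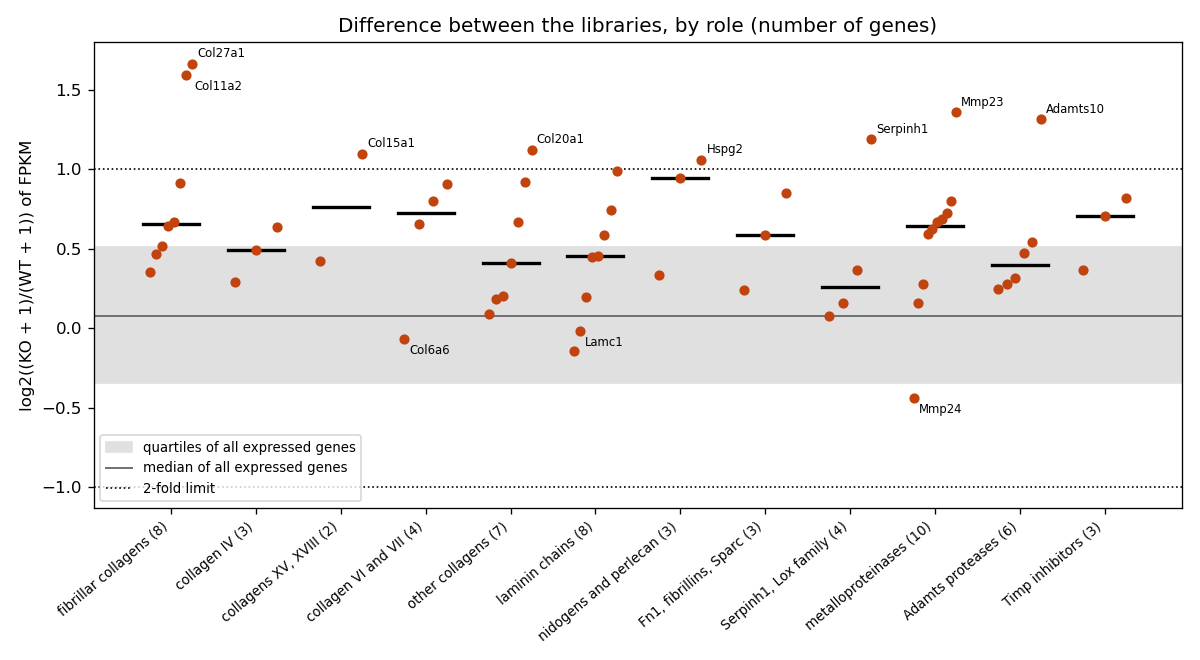
log2((KO + 1)/(WT + 1)) of FPKM for each expressed matrix gene (points) by role, with the median of the role (bar), the median and quartiles of all 12428 expressed genes (line and grey band) and the 2-fold limits (dotted). All 12 role medians lie above the median of all expressed genes, 8 genes lie above the upper limit and none below the lower one.

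Laminins are built from an α, a β and a γ chain, and the chains differed. Lamb2, a β chain of vessel and synapse laminins, was 13.7 FPKM in the library labelled KO, against 6.38 FPKM in the WT library (2.14, 1.94 to 2.36), just under the limit at a log2 ratio of 0.99. Lama5, an α chain of mature basement membrane, was 4.02 FPKM in KO-labelled islets, against 2.0 FPKM in WT islets (2.01, 1.78 to 2.26), and Lama3, the epithelial α chain, was 3.60 FPKM in KO-labelled islets, against 2.07 FPKM in WT islets (1.74, 1.54 to 1.97). Lama4, the α chain typical of endothelium, was 6.59 FPKM in KO-labelled islets, against 4.56 FPKM in WT islets (1.45, 1.28 to 1.63), and Lamb1 was 8.46 FPKM in KO-labelled islets, against 5.91 FPKM in WT islets (1.43, 1.29 to 1.59). Lamc1, the common γ chain, had an interval that held 1. It was 9.60 FPKM in the library labelled KO, against 9.73 FPKM in the WT library (0.987, 0.88 to 1.11). The Lamb2 level per Lamc1 level was therefore 1.42 in the library labelled KO, against 0.656 in the WT library. None of the 8 expressed laminin chains passed the 2-fold limit, and 6 of 8 had the higher FPKM in KO-labelled islets.

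The proteins that tie laminin to collagen IV were the role with the highest median log2 ratio, 0.94 over 3 genes. Hspg2 (chr4:137468769-137570630), which encodes the heparan sulfate proteoglycan perlecan, was 18.3 FPKM in the library labelled KO, against 8.26 FPKM in the WT library: the ratio was 2.21 (2.10 to 2.33) on 3823 reads in KO-labelled and 2271 in WT islets. The linker Nid2 was 8.63 FPKM in KO-labelled islets, against 4.01 FPKM in WT islets (2.15, 1.89 to 2.46), and its relative Nid1 was 15.8 FPKM in KO-labelled islets, against 12.3 FPKM in WT islets (1.28, 1.15 to 1.43). The Nid1 level per Nid2 level was 1.83 in the library labelled KO, against 3.07 in the WT library. On the log2 scale Hspg2 lay just above the limit at 1.06 and Nid2 just under it at 0.94, so the call divides genes with nearly the same ratio.

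Sparc (chr11:55394500-55423183), the most abundant matrix gene, was 135 FPKM in the library labelled KO, against 74.3 FPKM in the WT library: the ratio was 1.81 (1.74 to 1.89). It ranked at place 273 of all genes by FPKM in the library labelled KO and at place 544 in the WT library. Fn1, the cell-binding glycoprotein fibronectin, was low at 1.51 FPKM in KO-labelled islets, against 0.667 FPKM in WT islets (2.26, 1.77 to 2.89). Fbn1, the core of microfibrils, was 1.47 FPKM in KO-labelled islets, against 1.10 FPKM in WT islets (1.34, 1.11 to 1.63).

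The collagen-specific chaperone passed the limit and the expressed crosslinking enzymes did not. Serpinh1 (chr7:99345376-99353239), whose product holds folding procollagen in the endoplasmic reticulum, was 47.3 FPKM in the library labelled KO, against 20.2 FPKM in the WT library: the ratio was 2.34 (2.09 to 2.62). The expressed lysyl oxidase relatives, which crosslink collagen and elastin, were at lower levels. Their counting intervals held 1 on the smallest reads that fit. Loxl2 was 5.59 FPKM in the library labelled KO, against 5.26 FPKM in the WT library (1.06, 0.939 to 1.2), and its direction changed sign when each library was scaled to the same sum. Loxl1 was 2.35 FPKM in KO-labelled islets, against 2.01 FPKM in WT islets (1.17, 0.804 to 1.70), and Loxl3 was 1.08 FPKM in KO-labelled islets, against 0.618 FPKM in WT islets (1.75, 1.00 to 3.11). The Loxl3 interval barely held 1, on 32 reads in KO-labelled and 24 in WT islets. If the true reads are a multiple of these, it is too wide and may not hold 1. Lox itself was below the floor, at 0.664 FPKM in KO-labelled islets, against 0.253 FPKM in WT islets, but its ratio of 2.63 (1.54 to 4.60) had an interval above 1, on 44 reads in KO-labelled and 22 in WT islets.

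Of 17 metalloproteinases listed, 10 were expressed, and 9 of the 10 had the higher FPKM in KO-labelled islets, with Mmp2 changing sign once the GC and length trend was removed. The membrane-type enzymes Mmp15 and Mmp14 were the most abundant. Mmp15 was 9.0 FPKM in the library labelled KO, against 5.49 FPKM in the WT library (1.64, 1.45 to 1.86). Mmp14, the activator of Mmp2, was 6.50 FPKM in KO-labelled islets, against 3.72 FPKM in WT islets (1.75, 1.49 to 2.05), and Mmp2 itself was 1.70 FPKM in KO-labelled islets, against 1.23 FPKM in WT islets (1.38, 0.996 to 1.92). Mmp23 (chr4:155650655-155653384) had the widest difference and was the only one past the limit, at 3.82 FPKM in KO-labelled islets, against 0.883 FPKM in WT islets, a ratio of 4.33 (2.98 to 6.44) on 122 reads in KO-labelled and 37 in WT islets. With the GC and length trend removed its log2 ratio was 0.68 in place of 1.36, no longer past the limit and under those of Mmp12 (1.03) and Mmp13 (0.97). Mmp24, a membrane-type enzyme known mostly from neurons, went the other way at 2.67 FPKM in the library labelled KO, against 3.98 FPKM in the WT library (0.671, 0.553 to 0.811). It was the only expressed matrix gene with an interval below 1, and 13.6% of its exon bases overlap a gene on the opposite strand.

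The cluster genes whose start windows are printed above were low in both libraries and higher in the library labelled KO. Mmp13, a collagenase, was 2.01 FPKM in the library labelled KO, against 0.822 FPKM in the WT library (2.44, 1.66 to 3.64). Mmp12, the macrophage elastase, was 3.03 FPKM in KO-labelled islets, against 1.5 FPKM in WT islets (2.02, 1.42 to 2.90). Mmp7, known as matrilysin, was 1.48 FPKM in KO-labelled islets, against 0.423 FPKM in WT islets (3.50, 1.57 to 8.56) on 24 reads in KO-labelled and 9 in WT islets. These 3 stayed under the 2-fold limit on the log2(FPKM + 1) scale, at 0.72, 0.69 and 0.80. Mmp3, known as stromelysin, was below the floor at 0.497 FPKM in KO-labelled islets, against 0.0872 FPKM in WT islets, on 13 reads in KO-labelled and 3 in WT islets. Mmp8, which lies between Mmp3 and Mmp7 and whose window was not among those with the motif, was 0.140 FPKM in KO-labelled islets, against 0.128 FPKM in WT islets, on 5 reads in KO-labelled and 6 in WT islets. The AP-1 genes Fos and Jun, looked up after these values were seen, were 42.7 and 51.4 FPKM in the library labelled KO, against 5.59 and 13.2 FPKM in the WT library. Fosb also passed the 2-fold limit, while Junb, Jund and Fosl2 had log2 ratios of 0.66, 0.60 and 0.49 and Fosl1 was below the floor. Their part in the result was not tested.

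Adamts10 (chr17:33524204-33553782), which is known to bind fibrillin microfibrils, was 5.95 FPKM in the library labelled KO, against 1.80 FPKM in the WT library: the ratio was 3.31 (2.77 to 3.96). It was the only one of 6 expressed Adamts genes past the limit. Adamts1, which cuts proteoglycans, was 4.35 FPKM in KO-labelled islets, against 2.67 FPKM in WT islets (1.63, 1.21 to 2.20), and Adamts9 was 1.27 FPKM in KO-labelled islets, against 0.637 FPKM in WT islets (2.0, 1.54 to 2.60). Adamts18 was 1.52 FPKM in KO-labelled islets, against 1.12 FPKM in WT islets (1.35, 1.09 to 1.69). Adamts2, the enzyme that trims the amino end of procollagen, was 1.00 FPKM in KO-labelled islets, against 0.656 FPKM in WT islets (1.53, 1.15 to 2.05). The other 12 Adamts genes were below the floor.

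The inhibitors Timp3 and Timp2 were more abundant than any of the metalloproteinases or Adamts proteases, while Timp1 and Timp4 were not. Timp3, which stays bound to the matrix, was 112 FPKM in the library labelled KO, against 68.3 FPKM in the WT library: the ratio was 1.64 (1.58 to 1.69) on 7601 reads in KO-labelled and 6102 in WT islets. Timp2 was 26.2 FPKM in KO-labelled islets, against 20.1 FPKM in WT islets (1.30, 1.21 to 1.40). Timp1, the inducible form, was 2.64 FPKM in KO-labelled islets, against 1.06 FPKM in WT islets (2.48, 1.05 to 6.32) on at least 17 reads in KO-labelled and 9 in WT islets. None passed the 2-fold limit, and Timp4 was below the floor. Summed over their genes, the Timp inhibitors reached 141 FPKM in the library labelled KO, against 89.6 FPKM in the WT library, while the metalloproteinases reached 34.8 FPKM in KO-labelled islets and 20.8 FPKM in WT islets. Timp3 lies within Syn3, which runs on the other strand, and 21.3% of its exon bases overlap Syn3. The sources used here do not say whether reads were counted by strand, so reads of such overlaps are less certain. Over 5% of exon bases also overlap another gene for Fbn1, Mmp24, Mmp28, Adamts9, Loxl3, Mmp7, Nid2 and Loxl2.

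Below the floor lay 45 of the 106 genes. Of these, 35 had the higher FPKM in the library labelled KO and 10 the lower. By the smallest reads that fit, 27 had under 30 in the libraries together, which is an upper count. Low genes in general leaned towards the library labelled KO: 58.2% of all 17245 genes were higher there, against 54.4% of those expressed. The 58.2% includes the 12428 expressed genes, so it understates the lean of the genes below the floor. The interval of the ratio lay above 1 for 14 of the 45 and below 1 for 1, and its share over all genes below the floor was not taken. These counts are not read as particular to matrix genes. Adamts13, Col24a1 and Col17a1 were at 0 reads in the WT library and at 1 to 3 reads in the library labelled KO, so no fold is given.

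Other genes of matrix biology, outside the symbol rule, were summarised by 6 lists. The glycoproteins of elastic fibres, vessels and cell adhesion were shifted like the collagens, with a median log2 ratio of 0.67. Of 30 expressed, 26 (86.7%) were higher in the library labelled KO and 7 (23.3%) at least 2-fold, against 54.4% and 6.98% of all expressed genes. The widest were Vwf at 10.7 FPKM in the library labelled KO, against 2.77 FPKM in the WT library, Egfl7 at 65.4 FPKM in KO-labelled islets, against 20.5 FPKM in WT islets, and, in the other direction, the elastic-fibre protein Emilin1 at 15.2 FPKM in KO-labelled islets, against 44.8 FPKM in WT islets. The median of the 17 proteoglycans was 0.36, and 1 passed the limit, Bgn (biglycan), at 59.1 FPKM in KO-labelled islets, against 27.3 FPKM in WT islets. Spock2, a proteoglycan abundant in these islets, had a log2 ratio of -0.93. The enzymes that modify and secrete collagen had a median of 0.27 over 20 genes, of which Sparc is also counted above. They had 5% past the limit in each direction, near the 6.98% and 3.88% of all expressed genes. Of these, Pcolce, the enhancer of procollagen cleavage, was at least 2-fold higher at 14.3 FPKM in KO-labelled islets, against 5.61 FPKM in WT islets, and Mia3, needed to export procollagen from the endoplasmic reticulum, was at least 2-fold lower at 28 FPKM in KO-labelled islets, against 63.4 FPKM in WT islets.

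Receptors were divided, with shares near those of all expressed genes. Of 19 expressed integrins and other matrix receptors, 2 (10.5%) passed the limit upwards in the library labelled KO and 1 (5.26%) downwards. Over all expressed genes these shares were 6.98% and 3.88%. The receptor median was 0.17 (quartiles -0.32 and 0.55), against 0.077 (quartiles -0.35 and 0.51) over all expressed genes. The fibronectin receptor chain Itga5 was 6.71 FPKM in the library labelled KO, against 2.39 FPKM in the WT library, and the collagen receptor chain Itga10 was 5.14 FPKM in KO-labelled islets, against 1.80 FPKM in WT islets. Itgav, the chain of vitronectin receptors, was 5.56 FPKM in KO-labelled islets, against 12.6 FPKM in WT islets. Other proteases and inhibitors, such as plasminogen activators and cathepsins, had a median of 0.39 with 0 of 18 past the limit in either direction. The TGF-β list, from a pathway known to induce collagen synthesis, holds ligands, receptors and Smads but also the inhibitors Smad7, Ski and Skil. It had a median of -0.059 with 0 of 13 past the limit. Within that list Ccn2, a TGF-β target, had a log2 ratio of 0.96 and Tgfb1 one of 0.87, while the receptor Tgfbr1 had one of -0.87.

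Markers of the cell types that make matrix were higher in the same library. All 14 endothelial markers were higher in the library labelled KO, 5 of them (35.7%) at least 2-fold, against 6.98% of all expressed genes. Their summed level was 809 FPKM there, against 365 FPKM in the WT library. All 14 mesenchymal markers were higher, 4 at least 2-fold, with sums of 280 FPKM in the library labelled KO, against 140 FPKM in the WT library. Pdgfra, the fibroblast receptor, was below the floor at 0.544 FPKM in KO-labelled islets, against 0.421 FPKM in WT islets. The other fibroblast-type markers were expressed, such as Dcn at 31.3 FPKM in KO-labelled islets, against 17.9 FPKM in WT islets, as were the pericyte markers Pdgfrb and Rgs5. All 12 macrophage markers were higher as well, 7 at least 2-fold, with sums of 388 FPKM in KO-labelled islets and 168 FPKM in WT islets. No marker of these 3 lists was at 0. The ratios of these sums were 2.22, 2.0 and 2.31, against 1.66 for the matrix genes. Median log2 ratios of the expressed markers were 0.94 for endothelial, 0.84 for mesenchymal and 1.07 for macrophage markers. With the trend on GC content and transcript length removed they were 0.93, 0.82 and 0.47, against 0.48 for the matrix genes. At least 2-fold higher were then 5 of 14, 3 of 13 and 1 of 12, against 3.25% of all expressed genes. Their part in the matrix result was not tested.

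Acinar markers, from the enzyme-secreting cells around islets, were at 130 FPKM in sum in the library labelled KO, against 2003 FPKM in the WT library. All 11 acinar markers above the floor passed the limit downwards, with a median log2 ratio of -3.93, and Ptf1a was at 0 reads in the library labelled KO. Ductal markers had sums of 434 FPKM in the library labelled KO, against 404 FPKM in the WT library. Of these, 1 of 9 (11.1%) was at least 2-fold higher, near the 6.98% of all expressed genes. Mesothelial markers reached 23.4 FPKM in KO-labelled islets, against 22.4 FPKM in WT islets, a sum set by Msln, whose ratio was 0.913. The other 5 mesothelial markers had more reads in KO-labelled islets. The smallest that fit were 31 against 19 in WT islets for Krt19, 19 against 1 for Upk3b, 10 against 1 for Upk1b, 11 against 0 for Lrrn4 and 1 against 0 for Wt1. Schwann and neural markers reached 34.9 FPKM in KO-labelled islets, against 28.3 FPKM in WT islets, with 0 of 8 past the limit. Among 10 β-cell markers, 3 passed the limit downwards and 1 upwards, with a median of -0.55. The part of these differences in the matrix result was not tested either.

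**Figure D4:**
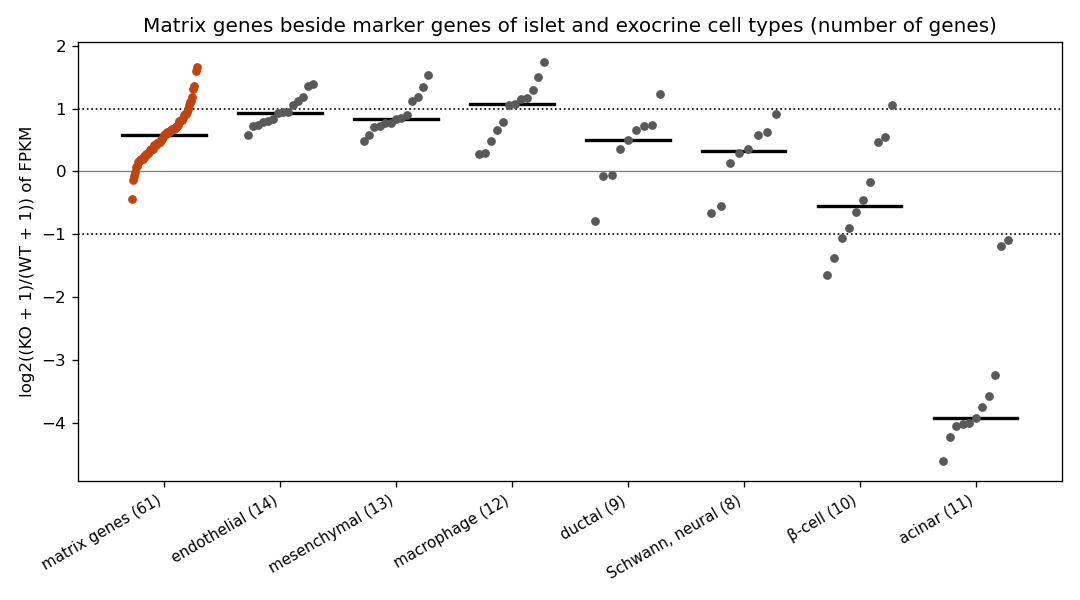
log2((KO + 1)/(WT + 1)) of FPKM for the 61 expressed matrix genes and for the expressed markers of 7 cell types (points), with the median of each list (bar) and the 2-fold limits (dotted). Endothelial, mesenchymal and macrophage markers lie above 0 throughout, as do 57 of 61 matrix genes, while acinar markers lie at a median of -3.93.

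The difference between the libraries also ran with base composition. Over 12376 expressed genes with a transcript in GENCODE M21, the log2 ratio had a Spearman correlation of 0.42 with the GC content of the transcript and of -0.39 with its length. Over the 61 matrix genes these were 0.31 and -0.25, given as a description, since all points share the same libraries. Matrix transcripts were richer in GC (median 54.3% against 50.5% for all expressed genes) and longer (5348 against 3100 nucleotides). Within ranges of GC content the median of the matrix genes was the higher one: 0.45 against -0.13 for other expressed genes up to 52.5% GC, 0.65 against 0.28 in the middle range, and 0.65 against 0.46 above 56.7% GC. All 8 genes past the limit lay in the upper ranges. They were 3 of 20 (15%) in the middle, where 9.42% of other genes passed it, and 5 of 20 (25%) in the highest, where 15.8% did. In the lowest range 0 of 21 passed, against 3.35% of other genes, so the share rose with GC content in both. With a smooth trend on GC content and length removed from all genes, the median of the matrix genes was 0.48 and 56 of 61 lay above 0. Over all expressed genes the median was then -0.013 and 49.05% lay above 0. Col27a1 and Col11a2 then stayed past the limit, at 1.41 and 1.22, Mmp12 came to lie past it at 1.03, and the other 6 did not pass. Over the 61 genes, 5 changed sign under this correction: Col6a6, Lamc1, Loxl1, Col9a2 and Mmp2.

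**Figure D5:**
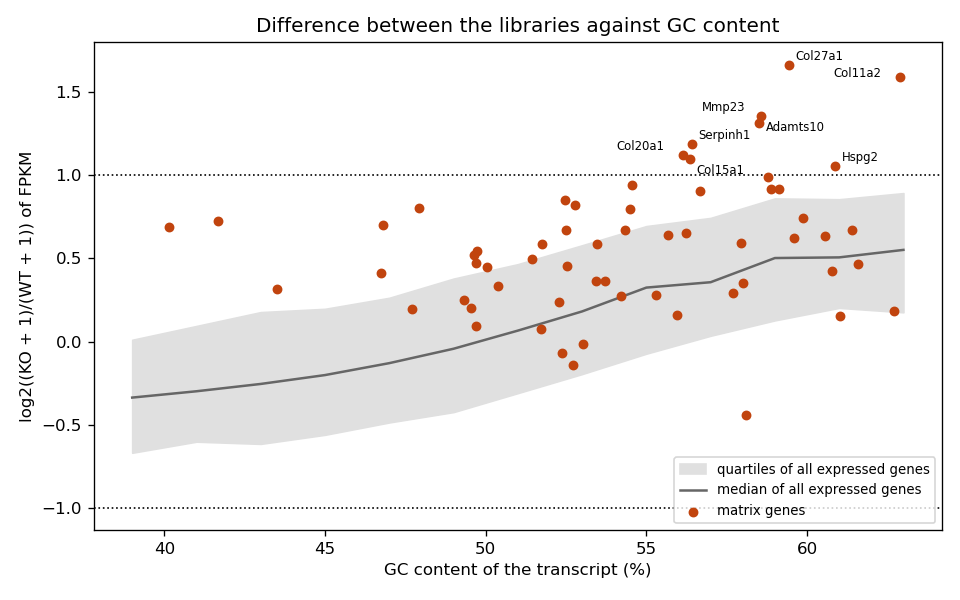
log2((KO + 1)/(WT + 1)) of FPKM of the 61 expressed matrix genes (points) against the GC content of their transcripts, over the median and quartiles of all expressed genes with a transcript (line and band), with the 2-fold limits dotted. Matrix genes lie mostly above the line across its whole length, and the 8 named genes past the limit all lie in its GC-rich part.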

How the data were processed

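RNA of 2 samples, 1 library per genotype, was grouped by the genotype label. Per the labels' protocols, islets were digested with collagenase, picked and cultured, and a SMARTER mRNA kit turned their total RNA into libraries. The authors deposited FPKM values, 1 column per library, which were used without further scaling. The build was GRCm38 (mm10), per the submitters' processing notes. The aligner, counter, annotation and strand setting were not given in the sources used here.

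Library totals were found as those that turn the FPKM values into whole reads over a whole gene length of 60 to 30000 nucleotides. Both values of 17178 of 17245 genes (99.6%) then lay within 1e-05 of a whole read (plus 1e-09 of the reads), against 1.5% of 1000 shuffled pairs. The smallest such reads gave exact Clopper-Pearson 95% intervals of the FPKM ratio. Where the true reads are a multiple of these, the interval is too wide. The search was tested on simulated data. With 1 library per genotype no test was run.

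Genes were compared by log2((KO + 1)/(WT + 1)); the added 1 FPKM, a pseudocount, understates the change of low genes. Genes at 1 FPKM or more in either library were kept, and the limit was 2-fold on that scale. The members, lists and limits were chosen with earlier results of these data known. Values in full were given for the 3 expressed genes of each role with the widest log2 ratio and the 3 with the highest FPKM, and for up to 3 genes of each pathway list; others named in single sentences were chosen after their values were seen. Alternatives were other pseudocounts, floors and scalings and removal of a lowess trend (fraction 0.3, 3 iterations) on GC content and then length. Gene coordinates, GC content, length and overlaps came from GENCODE M21 on GRCm38. Start windows came from RefSeq (GRCm38.p6), which matched 71 of the 106 genes, and each motif was searched on both strands. Python 3.11.15, pandas 2.3.3, SciPy 1.17.1 and statsmodels 0.14.6 were used. The values of 1 expressed gene are not reported here.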

Additional observations from a re-analysis of the deposited data

How the results depend on the processing

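The number of matrix genes at least 2-fold higher in the library labelled KO, 8 of 61, depended on the settings, while 0 were at least 2-fold lower under every alternative run. It was 20 with a pseudocount of 0.1 FPKM and 1 (Serpinh1) with one of 5 FPKM, where 12.5% and 2.45% of all expressed genes passed. It was 5 of 57 with equal sums without the 20 highest genes (4.51% of all genes), and removal of the GC and length trend left 3 of 61 (3.25%). It stayed between 6 and 8 under the other 7 alternatives, but over differing numbers of genes. It was 8 of 106 with no floor (5.03% of all genes) and 7 of 29 with a floor of 5 FPKM (8.75%). Scaling by the median ratio gave 8 of 60 (5.98%). Of the 7 alternatives, 3 were added after seeing the data. A floor on the mean of both libraries gave 8 of 55 (7.1%) and a floor in both 7 of 50 (6.85%). Leaving out genes whose exons overlap another gene by over 5% gave 8 of 52 (6.99%). Scaling each library to a sum of 1000000 gave 6 of 64, without Col15a1 and Hspg2. Then 5.36% of all genes were at least 2-fold higher and 6.16% lower, against 6.98% and 3.88% on the deposited scale. The median log2 ratio of 0.58 became 0.28 with a pseudocount of 5 FPKM and also 0.28 with no floor, over all 106 genes, and lay between 0.48 and 0.71 otherwise. The scalings moved the median of all expressed genes from 0.077 to as low as -0.059, and the matrix median stayed 0.51 to 0.55 above it. Among the 61 genes Loxl2 and Col14a1 changed sign under the sum of 1000000 and the equal sums, and Col6a6, Lamc1, Loxl1, Col9a2 and Mmp2 with the trend removed. Of the 45 genes under the floor, 27 had under 30 reads by the smallest reads that fit, which limits their ratios. No paired analysis was possible because each genotype has 1 library.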
